A study of Mus musculus with 8 samples.

Results

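The genes described here are those of the node of Ranvier and its flanks: Nfasc, Cntn1, Cntn2, Cntnap1, Cntnap2, Kcna1, Kcna2, Ank3, Sptbn4 and Scn8a. They were chosen by symbol and function, with earlier results of the same treatment comparison known, and they are 10 of 55401 genes listed by the authors. The libraries come from the hypothalamus of mice at postnatal day 19, the age the series' design text gives, although the tissue label reads brain. The 8 animals comprised 4 pups gavaged with PLX3397, a small-molecule inhibitor of the receptor CSF1R that is used to remove microglia, and 4 gavaged with vehicle. Dosing ran from postnatal day 9 to 15, so tissue was taken after dosing had ended, and each group held 2 females (F1, F2) and 2 males (M1, M2). The labels name no strain or genotype, and the compound was given to the whole animal rather than to a chosen cell type. RNA was measured in whole tissue by sequencing of ribosome-depleted total RNA.

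Myelin wraps an axon in segments, and the gaps between segments are the nodes of Ranvier, where voltage-gated sodium channels regenerate the action potential. On either side of a node lies the paranode, where the edge of the myelin sheath is sealed to the axon. The seal is a complex of neurofascin on the glial side with contactin and a contactin-associated protein on the axonal side. Beyond it lies the juxtaparanode, where another contactin and contactin-associated protein hold Shaker-type potassium channels under the myelin. At the node itself ankyrin-G and beta-IV spectrin tie channels and the neuronal form of neurofascin to the cytoskeleton, and the same scaffold builds the axon initial segment. The proteins are made by neurons, by oligodendrocytes, the cells that form central myelin, or by both, so a whole-tissue level sums over these sources.

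Of the 10 genes, Nfasc alone was lower with PLX3397 past the threshold used for all genes, and the other 9 were not past it in either direction. Nfasc and Cntn2 are neighbours on chromosome 1, both on the minus strand, with 21.4 kb and 0 listed genes between them, and they had unlike values: −1.10 for Nfasc and −0.01 for Cntn2 (log2 fold change, PLX3397 over vehicle). Bases upstream of a RefSeq start of each gene are shown because of that contrast, with a window of Cntnap2 because it is the 1 window of 15 that holds the MYRF motif described next. Sequences are from RefSeq in build GRCm38.p6, run 5′ to 3′ on the gene's strand, and leave out bases that fall in an annotated exon. Capitals mark a motif match.
Nfasc, chr1:132707407-132707576, minus strand: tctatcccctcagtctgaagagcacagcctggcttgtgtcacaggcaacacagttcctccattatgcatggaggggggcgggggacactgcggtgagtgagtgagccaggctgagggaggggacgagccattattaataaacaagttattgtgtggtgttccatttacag
Cntn2, chr1:132542941-132543028, minus strand: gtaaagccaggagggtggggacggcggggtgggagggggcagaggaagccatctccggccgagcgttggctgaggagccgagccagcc
Cntnap2, chr6:47244146-47244386, plus strand: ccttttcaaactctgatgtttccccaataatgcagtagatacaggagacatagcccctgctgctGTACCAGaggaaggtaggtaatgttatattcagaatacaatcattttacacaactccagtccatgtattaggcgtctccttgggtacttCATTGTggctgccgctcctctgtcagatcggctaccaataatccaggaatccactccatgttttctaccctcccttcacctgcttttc

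MYRF and SOX10 are transcription factors of oligodendrocytes. On both strands of the 250 bases before each RefSeq start, the MYRF motif was searched as CTGGCAC or CTGGTAC and a SOX motif as ACAAAG or ACAATG. RefSeq windows were found for 7 of the 10 genes, 15 windows in all. The MYRF motif was in 1 of the 15, against 5.93% of 32851 windows of all genes, and the SOX motif in 3, against 25.2%. Neither was in the windows of Nfasc or Cntn2. A match is a description of letters, not a binding site, and its absence says nothing of the factor. All 3 printed windows lie inside the gene as the authors list it: the listed starts are 132741778 for Nfasc, 132543256 for Cntn2 and 45059357 for Cntnap2, each upstream of the window shown. The Nfasc window ends in ag, as the bases before an internal exon do, and the Cntn2 window opens with gtaa, as the bases after an exon can. Where transcription begins in this tissue was not measured.

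Total counts per library were 55900335 to 67487391 with PLX3397 and 54115300 to 60001808 with vehicle. Levels are counts per 1000000 (CPM) with TMM scaling, given as mean ± SD over 4 libraries. The drug's target, Csf1r, stood at 4.69 ± 2.38 CPM with PLX3397 and 81.0 ± 3.81 CPM with vehicle. Genes of hypothalamic neuropeptides were detected in every library, Pmch for one at 252 to 324 CPM with PLX3397 and 224 to 244 CPM with vehicle. In the comparison of treatments, edgeR's quasi-likelihood test with sex as a covariate called 362 of 16894 tested genes at an adjusted p under 0.05, or 2.14%, of which 310 were lower (1.83%) and 52 higher (0.308%). One vehicle library, F1, stood apart with a summed level of 4028 CPM for 6 pituitary hormone genes, against 28.3 to 38.9 CPM with PLX3397 and 27.3 to 38.9 CPM in the other vehicle libraries. PLX3397 M2 held the least microglial and myelin RNA.

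All 10 genes were expressed high enough to be tested. The count of 1 lower gene stands beside the background of 1.83% and is given with no test, since the genes were chosen with this comparison known. DESeq2, run as an alternative, also called 1 of the 10, again Nfasc, beside 6.49% of all genes tested. The groups' values failed to overlap for 1 of the 10, Nfasc, beside 11.2% of all genes tested (6.32% with PLX3397 lower and 4.85% with PLX3397 higher). The median log2 fold change of the 10 was −0.01 and the median of its size without sign was 0.09, against −0.0025 and 0.11 over all genes tested.

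**Figure D1:**
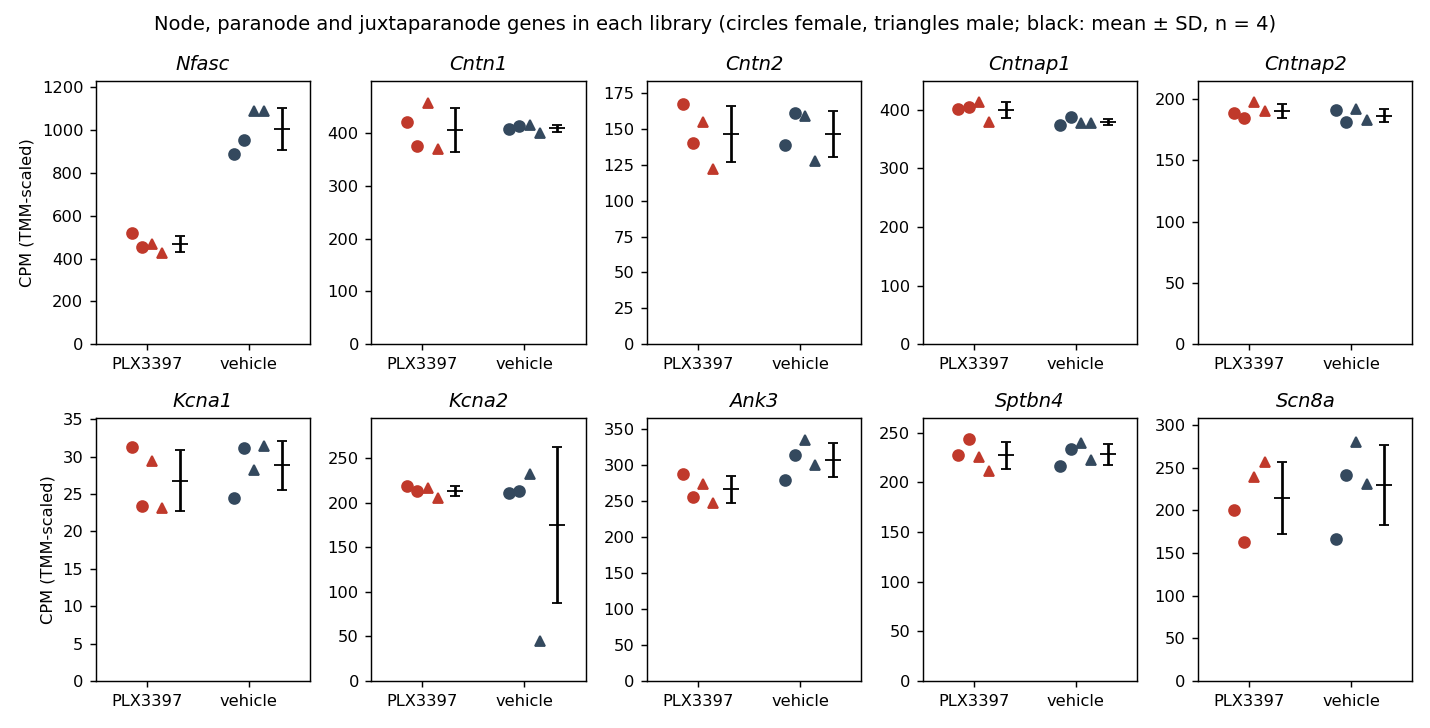
Level of each of the 10 genes in CPM (TMM-scaled) in each library, PLX3397 left and vehicle right, with circles for females, triangles for males and black bars for mean ± SD (n = 4). The 4 PLX3397 values of Nfasc lie at 427 to 518 CPM, below all 4 vehicle values at 890 to 1088 CPM. The values of the other 9 genes overlap between the groups, and vehicle M2 stands alone at 44.9 CPM for Kcna2.

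The paranodal seal is made by neurofascin, contactin-1 and the contactin-associated protein Caspr. Nfasc (ENSMUSG00000026442; mm10 chromosome 1, 132564690 to 132741778, minus strand) encodes neurofascin, a cell adhesion protein with a glial form at the paranode and a neuronal form at the node and axon initial segment. It had 518, 454, 469 and 427 CPM in PLX3397 F1, F2, M1 and M2, against 890, 954, 1088 and 1088 CPM in vehicle F1, F2, M1 and M2. Every PLX3397 library was below every vehicle library. The means were 467 ± 38.0 CPM with PLX3397 and 1005 ± 99.4 CPM with vehicle, so Nfasc fell by 1.10 ± 0.08 on the log2 scale (SE; 95% interval −1.30 to −0.91), which is 2.15-fold lower. These values rest on 23645 to 34441 counts per library with PLX3397 and 52136 to 64929 with vehicle, so counting error is small beside the spread between animals. The deposited table gives 1 value per gene, and the glial and neuronal forms could not be separated. In bulk tissue fewer cells of a type and less RNA per cell cannot be told apart either.

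Cntn1 (ENSMUSG00000055022; chromosome 15, 92051165 to 92341967, plus strand) encodes contactin-1, the lipid-anchored axonal partner that binds glial neurofascin. It had 421, 375, 457 and 370 CPM in PLX3397 F1, F2, M1 and M2, against 407, 413, 415 and 401 CPM in the vehicle libraries in the same order. The group means were close, at 406 ± 41.2 CPM with PLX3397 and 409 ± 6.44 CPM with vehicle, and the spread was wider with PLX3397. The log2 fold change was −0.01 ± 0.07 (95% interval −0.17 to 0.15). Cntnap1 (ENSMUSG00000017167; chromosome 11, 101170523 to 101190724, plus strand) encodes Caspr, the axonal protein that travels to the membrane with contactin-1. It had 401, 404, 412 and 379 CPM with PLX3397 and 374, 387, 378 and 377 CPM with vehicle. The 3 highest values were from PLX3397 libraries, and PLX3397 M2 lay within the vehicle range. The log2 fold change was 0.08 ± 0.03, with a 95% interval of −0.0013 to 0.15. Cntnap1 overlaps Plekhh3 and Ccr10, whose counts reached at most 3.21% of its own.

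Both axonal partners of the paranodal complex had intervals that do not reach that of Nfasc. Their lower bounds were −0.17 for Cntn1 and −0.0013 for Cntnap1, against an upper bound of −0.91 for Nfasc.

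At the juxtaparanode, Cntn2 (ENSMUSG00000053024; chromosome 1, 132509427 to 132543256, minus strand) encodes contactin-2, also called TAG-1, which neurons and glia both make and which links the membranes by binding to itself. It had 168, 140, 155 and 122 CPM in PLX3397 F1, F2, M1 and M2, against 139, 161, 159 and 128 CPM in the vehicle libraries. The groups overlapped over most of their range, with means of 146 ± 19.5 and 147 ± 16.0 CPM for PLX3397 and vehicle and a log2 fold change of −0.01 ± 0.11 (95% interval −0.26 to 0.25). Cntnap2 (ENSMUSG00000039419; chromosome 6, 45059357 to 47304213, plus strand) encodes the axonal partner of contactin-2, which is needed to cluster potassium channels there. It had 189, 185, 198 and 190 CPM with PLX3397 and 191, 181, 192 and 183 CPM with vehicle, nearly the same range in both groups. Its log2 fold change was 0.03 ± 0.03 (95% interval −0.05 to 0.11).

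Kcna1 (ENSMUSG00000047976; chromosome 6, 126640397 to 126644813, minus strand) and Kcna2 (ENSMUSG00000040724; chromosome 3, 107101146 to 107115005, plus strand) encode the pore subunits of the juxtaparanodal potassium channels. Kcna1 had 31.2, 23.4, 29.4 and 23.2 CPM with PLX3397, against 24.4, 31.2, 28.2 and 31.5 CPM with vehicle. Both groups spanned nearly the same range, and the log2 fold change was −0.10 ± 0.13 (95% interval −0.41 to 0.20). Kcna2 had 219, 213, 217 and 206 CPM with PLX3397 and 211, 213, 232 and 44.9 CPM with vehicle. Vehicle M2 was far below the other 7 libraries, which lay between 206 and 232 CPM. The means were 214 ± 5.81 CPM with PLX3397 and 175 ± 87.5 CPM with vehicle, and the log2 fold change was 0.32 ± 0.43, or −0.04 without vehicle M2. The value in vehicle M2 rests on 2677 counts, against 12355 to 12522 in the other vehicle libraries.

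At the node, Ank3 (ENSMUSG00000069601; chromosome 10, 69398773 to 70027438, plus strand) encodes ankyrin-G, the scaffold that gathers sodium channels. It had 287, 255, 274 and 247 CPM in PLX3397 F1, F2, M1 and M2, against 279, 313, 334 and 300 CPM in the vehicle libraries. All PLX3397 libraries other than F1 were below every vehicle library, and F1 was above vehicle F1 alone. The means were 266 ± 18.2 CPM with PLX3397 and 306 ± 23.1 CPM with vehicle, and the log2 fold change of −0.21 ± 0.07 (95% interval −0.37 to −0.04) was not past the threshold over all genes. Sptbn4 (ENSMUSG00000011751; chromosome 7, 27356383 to 27447686, minus strand) encodes beta-IV spectrin, which links ankyrin-G to actin. It had 228, 244, 225 and 211 CPM with PLX3397 and 216, 234, 240 and 223 CPM with vehicle, which overlap, and a log2 fold change of −0.01 ± 0.05 (95% interval −0.13 to 0.12).

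Scn8a (ENSMUSG00000023033; chromosome 15, 100869858 to 101045938, plus strand) encodes the sodium channel that predominates at mature nodes. It had 201, 163, 239 and 257 CPM with PLX3397, against 167, 241, 280 and 231 CPM with vehicle. The groups overlapped widely. Means were 215 ± 41.9 CPM with PLX3397 and 230 ± 46.9 CPM with vehicle, and the log2 fold change was −0.10 ± 0.13 (95% interval −0.40 to 0.19). The interval leaves room for a moderate difference in either direction.

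Levels of different genes can be set side by side only per transcript length, for which the authors' FPKM values (fragments per kilobase of transcript, scaled for depth) were used. With vehicle, Nfasc had the highest mean at 62.2 FPKM, next to Cntnap1 at 56.4 FPKM, and their ranges over libraries overlapped. Cntn1 followed at 38.0 FPKM, Sptbn4 at 20.9 FPKM and Cntnap2 at 15.9 FPKM, each apart from its neighbours in the order. Cntn2 (13.8 FPKM), Kcna2 (12.9 FPKM, with vehicle M2 at 3.27 FPKM) and Scn8a (12.7 FPKM) overlapped along the order, and Ank3 at 7.69 FPKM and Kcna1 at 5.27 FPKM came last. With PLX3397, Nfasc had 28.8 FPKM and came after Cntnap1 at 59.2 FPKM and Cntn1 at 37.5 FPKM, the transcripts of the axonal paranodal proteins, with no overlap between these ranges. A single length per gene enters these values, so a gene with long and short forms may be misplaced.

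**Figure D2:**
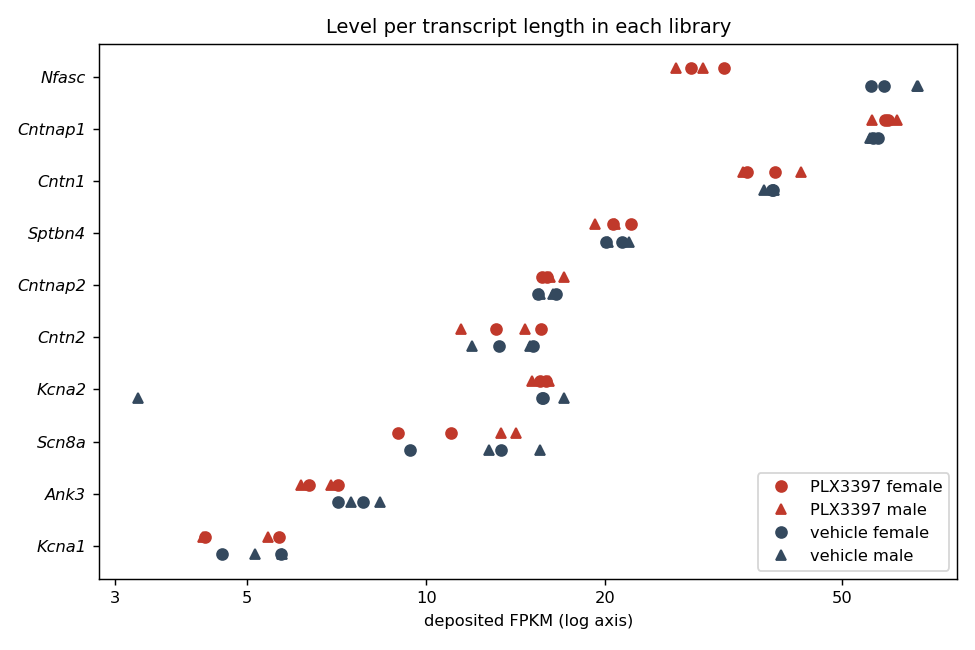
Deposited FPKM on a log axis for each gene and library, genes ordered from top to bottom by their mean with vehicle, PLX3397 in red above vehicle in blue, circles for females and triangles for males. Nfasc lies at 26.3 to 31.6 FPKM with PLX3397 and 55.8 to 67.2 FPKM with vehicle, and Cntnap1 at 56.2 to 61.8 FPKM with PLX3397 and 55.8 to 57.4 FPKM with vehicle.

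The genes around these 10 were taken from lists of other node, paranode and juxtaparanode genes, 42 in all, every one of them tested. Of the 42, 5 were lower and 0 higher with PLX3397 at an edgeR adjusted p under 0.05 over all genes, beside 2.14% of all genes called in either direction. The median log2 fold change of the 42 was 0.03. The 5 fall in 2 groups by function: 3 of 20 other node genes, all matrix molecules, and 2 of 11 other paranode genes, both of the myelin side. Of the 11 other juxtaparanode genes 0 passed in edgeR's test, with 3 at an unadjusted p under 0.05, beside 16.2% of all genes tested, and DESeq2 called 1, Lgi3, beside 6.49%. Group values did not overlap for 2 of these 11, beside 11.2%. Of the 11 other paranode genes, 7 had an unadjusted p under 0.05 in edgeR's test and DESeq2 called 4. Group values of that list did not overlap for 4 lower genes and 1 higher gene. Of the 20 other node genes, 4 had an unadjusted p under 0.05 and DESeq2 called 3. Their group values did not overlap for 3, all lower. These counts stand beside the same shares of all genes tested.

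The matrix genes were Tnr, Vcan and Bcan, which encode tenascin-R and the proteoglycans versican and brevican, found in the matrix around nodes and elsewhere in brain matrix. Tnr had 195, 181, 174 and 174 CPM in PLX3397 F1, F2, M1 and M2, against 296, 326, 398 and 363 CPM in the vehicle libraries, with no overlap. Vcan had 13.0, 16.5, 13.1 and 17.6 CPM with PLX3397 and 34.4, 33.6, 35.5 and 41.5 CPM with vehicle, with no overlap. Bcan had 313, 298, 264 and 254 CPM with PLX3397 and 336, 399, 375 and 393 CPM with vehicle, a narrower gap. The log2 fold changes were −0.93 ± 0.09 for Tnr and −1.27 ± 0.12 for Vcan (edgeR adjusted p = 0.0046 for each) and −0.42 ± 0.08 for Bcan (edgeR adjusted p = 0.0441). Tnr and Vcan kept an adjusted p under 0.05 in 8 of 8 fits that each left out a library. Bcan kept it in 2 of 8, without PLX3397 F1 (0.0426) or vehicle F1 (0.0125), and had 0.112 to 0.138 in the others. No other channel or adhesion gene of this list passed. Nrcam, which encodes the neurofascin relative of the node, had 0.06 ± 0.07 (edgeR adjusted p = 0.715).

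The myelin-side paranode genes were Gal3st1, whose enzyme makes the sulfated glycolipid sulfatide, and Mag, which encodes myelin-associated glycoprotein. Gal3st1 had 15.4, 11.9, 12.7 and 11.4 CPM with PLX3397 and 24.6, 22.4, 30.5 and 33.4 CPM with vehicle, a log2 fold change of −1.10 ± 0.15 (edgeR adjusted p = 0.0146). Mag had 223, 133, 148 and 83.0 CPM with PLX3397 and 350, 393, 460 and 607 CPM with vehicle, −1.63 ± 0.32 (edgeR adjusted p = 0.0489). Neither gene's groups overlapped. Gal3st1 kept its call in 5 of 8 fits that each left out a library and lost it without PLX3397 F2 (0.061), PLX3397 M1 (0.0652) or vehicle M1 (0.054), while Mag kept it only without PLX3397 F1 (0.02) and otherwise had 0.069 to 0.148. Ugt8a and Fa2h, which act earlier in the same glycolipid pathway, also had groups that did not overlap, with −1.35 ± 0.28 and −1.04 ± 0.29, and did not pass (edgeR adjusted p = 0.0642 and 0.134).

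Genes of the axonal side of the paranode were near 0: Epb41l3, whose protein anchors Caspr inside the axon, had 0.03 ± 0.04 (edgeR adjusted p = 0.737), and Ank2, which encodes ankyrin-B, 0.03 ± 0.04 (edgeR adjusted p = 0.802). At the juxtaparanode the 4 genes with the smallest p were Lgi3, Kcnab1, Dlg4 and Lgi1. Lgi3, which encodes a secreted ligand of ADAM proteins at the axon, had 157 ± 17.1 CPM with PLX3397 and 201 ± 20.4 CPM with vehicle (−0.36 ± 0.10, edgeR adjusted p = 0.14), with groups that did not overlap. Kcnab1, a cytoplasmic subunit of the potassium channels, had 45.8 ± 4.74 CPM with PLX3397 and 38.3 ± 1.91 CPM with vehicle (0.26 ± 0.09, edgeR adjusted p = 0.2), again without overlap and in the other direction. Dlg4, a scaffold of synapses and juxtaparanodes, had 0.16 ± 0.05 (edgeR adjusted p = 0.217) and Lgi1, another secreted ligand, 0.43 ± 0.26 (edgeR adjusted p = 0.481).

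Of 25 paralogues of the 10 genes, 0 passed in edgeR's test and DESeq2 called 0, with 4 at an unadjusted p under 0.05, beside 16.2% of all genes tested. Of the 25, 21 had a positive and 4 a negative log2 fold change, with a median of 0.06 and values from −0.36 to 0.44. Among those with the smallest p were Cntn4 (0.25 ± 0.08), Sptbn1 (0.17 ± 0.06) and Kcna5 (0.44 ± 0.16), with edgeR adjusted p between 0.207 and 0.247.

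**Figure D3:**
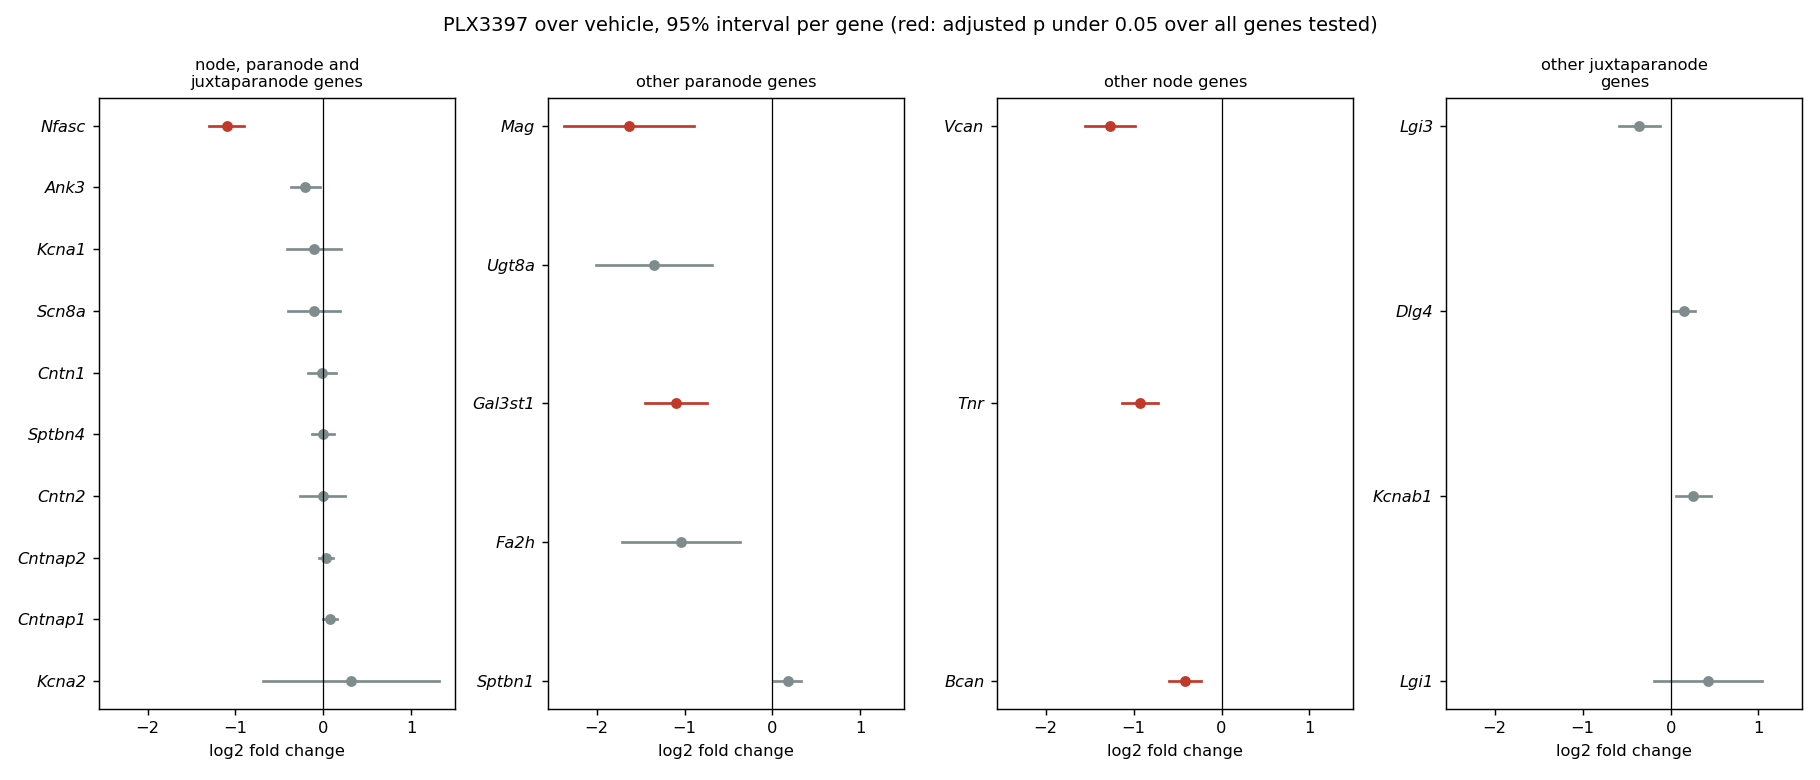
Log2 fold change of PLX3397 over vehicle with its 95% interval for the 10 genes and for others of the node, paranode and juxtaparanode that the text names by their small p, with red for an edgeR adjusted p under 0.05 over all genes tested. Of the 6 red genes, Nfasc, Vcan, Tnr, Bcan, Mag and Gal3st1, all lie left of 0. The interval of Kcna2 is the widest of the 10, −0.68 to 1.32.

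Marker genes of the cells that make these proteins, and of other cells, were examined in the same libraries. Their counts stand beside 2.14% of all genes tested that passed in edgeR's test and 6.49% called by DESeq2. An unadjusted p under 0.05 in edgeR's test was found for 16.2% of all genes tested. All 12 mature oligodendrocyte markers had a negative log2 fold change (median −1.16) and 4 of them passed, Mag among them, which is also counted above; their summed level was 2269 to 5156 CPM with PLX3397 and 6600 to 10004 CPM with vehicle. Of 7 markers of newly formed oligodendrocytes 6 passed, all lower (median −2.50), with sums of 111 to 186 CPM with PLX3397 and 603 to 892 CPM with vehicle. Of 6 precursor markers 3 passed, all lower: Olig1 (−0.93), Olig2 (−0.93) and Sox10 (−1.32). Pdgfra (−0.21), Cspg4 (−0.28) and Ptprz1 (0.04) did not pass, so the median of the 6, −0.60, lies between unlike values. The precursor sums were 549 to 579 CPM with PLX3397 and 661 to 829 CPM with vehicle. Of 10 neuron markers 1, Nefl, passed and was higher (median 0.17), with sums of 4297 to 4647 CPM with PLX3397 and 4025 to 4179 CPM with vehicle. Of the same 10, 9 had a positive log2 fold change, 7 an unadjusted p under 0.05 in edgeR's test, and DESeq2 called 5. Of 7 astrocyte markers 0 passed in edgeR's test, with 2 at an unadjusted p under 0.05 and 1 called by DESeq2, and their sums overlapped, at 3276 to 3535 CPM with PLX3397 and 3065 to 3653 CPM with vehicle. Of 10 microglia markers 8 passed, all lower, with sums of 23.4 to 49.8 CPM with PLX3397 and 291 to 303 CPM with vehicle. Of 5 blood markers 4 were tested and 0 passed in edgeR's test or DESeq2, with all 4 negative at an unadjusted p under 0.05 (median −1.55); their sums were 28.1 to 62.0 CPM with PLX3397 and 32.2 to 202 CPM with vehicle. Mitochondrially encoded transcripts took 4.87% to 5.36% of counts with PLX3397 and 4.51% to 4.88% with vehicle. None of these lists had a marker at 0 in every library. The part of these shifts in the level of Nfasc or of any other gene was not tested.

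Within the PLX3397 group, Nfasc, Cntn2, Kcna1, Kcna2 and Ank3 had the same order of libraries as the myelin gene Mbp, with F1 highest, then M1, F2 and M2. Mbp stood at 652, 440, 526 and 354 CPM in PLX3397 F1, F2, M1 and M2. Some steps in this order were small: Kcna1 had 23.4 and 23.2 CPM in PLX3397 F2 and M2, and Kcna2 spanned only 206 to 219 CPM. Within the vehicle group Mbp was highest in M2, then M1, F2 and F1, and 0 of the 10 genes had exactly this order. Nfasc differed from it only in the places of M1 and M2, where its values were nearly equal, at 1088.39 and 1087.98 CPM. The exact shared order is thus a feature of 4 libraries. The share of all genes with either order of Mbp was not counted, and a link to myelin was not tested.

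**Figure D4:**
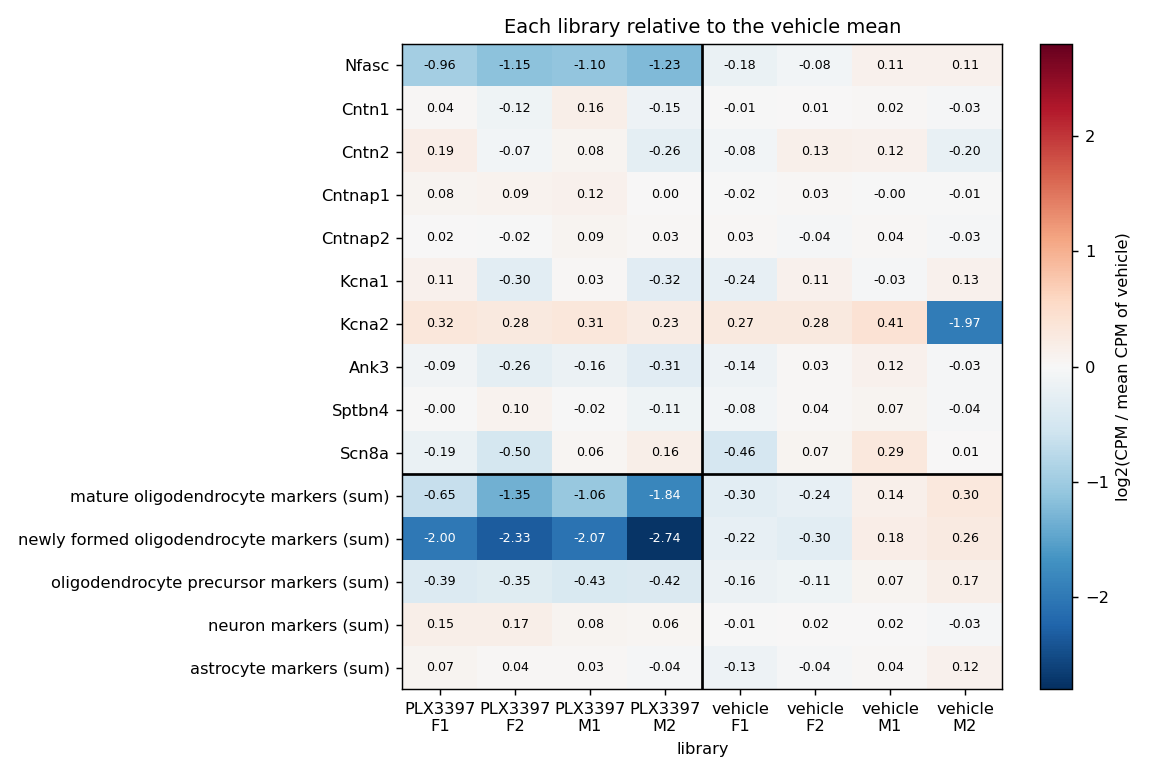
Log2 ratio of each library's CPM to the vehicle mean for the 10 genes (upper rows) and for summed marker lists of 5 cell types (lower rows), PLX3397 libraries left of the vertical line. In the PLX3397 libraries Nfasc is at −1.23 to −0.96, within the range of the mature oligodendrocyte sum (−1.84 to −0.65), while the precursor sum is at −0.43 to −0.35 and the neuron sum at 0.06 to 0.17. Kcna2 is above 0 in 7 libraries because its vehicle mean includes the low value of vehicle M2 (−1.97).

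A comparison the choice of genes did not use is that of the sexes. With treatment as a covariate, 0 of the 10 genes differed between females and males at an edgeR adjusted p under 0.05, beside 0.0592% of all genes tested; 1 had an unadjusted p under 0.05, beside 4.99%, and DESeq2 also called 0. That gene was Scn8a, at −0.39 ± 0.13 on the log2 scale, females over males (edgeR unadjusted p = 0.0183, adjusted p = 0.933). Its female libraries had 201 and 163 CPM with PLX3397 and 167 and 241 CPM with vehicle, and its male libraries 239 and 257 CPM with PLX3397 and 280 and 231 CPM with vehicle. Females were below males within the PLX3397 group, and the vehicle libraries overlapped.

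The difference of the treatment effect between the sexes was also tested on its own. None of the 10 genes passed in edgeR's test of the interaction, beside 0.077% of all genes; 1 had an unadjusted p under 0.05, beside 6.01%, and DESeq2 also called 0. For Nfasc the log2 fold change was −0.92 ± 0.08 in females and −1.28 ± 0.08 in males, a difference of 0.36 ± 0.11 (edgeR unadjusted p = 0.0153, adjusted p = 0.796). In the vehicle group both female values, 890 and 954 CPM, were below both male values of 1088 CPM, whereas the PLX3397 libraries overlapped between the sexes. The difference was positive in 14 of 14 alternative fits, with adjusted p from 0.454 to 1, so a sex difference of this size was not established with 2 animals per sex and group. The summed mature oligodendrocyte markers stood at 5156 and 3177 CPM in females and 3890 and 2269 CPM in males with PLX3397, and at 6600 and 6884 CPM in females and 8922 and 10004 CPM in males with vehicle. The summed blood markers stood at 62.0 and 28.1 CPM in females and 29.9 and 44.5 CPM in males with PLX3397, and at 32.2 and 93.0 CPM in females and 198 and 202 CPM in males with vehicle. The part of either in the difference was not tested. Of the 42 other node, paranode and juxtaparanode genes 0 passed in edgeR's test and 5 had an unadjusted p under 0.05: Tnr, Bcan, Gal3st1, Mag and Lgi3, each with the sign of Nfasc. The smallest p was that of Lgi3, with a log2 fold change of −0.11 ± 0.07 in females and −0.60 ± 0.07 in males (edgeR unadjusted p = 0.00223, adjusted p = 0.414). Kcna2 passed in 1 fit, the one without vehicle M1 (edgeR adjusted p = 0.00397), which leaves vehicle M2 as the single vehicle male and assumes that it varies like the other groups.

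The 3 genes most like each of the 10 across the 8 libraries were found by Pearson's r of log2(CPM + 0.5), as a description of these libraries. The 3 closest to Nfasc were Rnf122 (r = 0.996), 9630013A20Rik (0.996) and Unc93b1 (0.995), with log2 fold changes of −1.79, −3.28 and −1.68. Nfasc's groups do not overlap, so each of these r values carries the difference between treatments. Closest to Ank3 were Entpd5 (0.973), Mtf1 (0.972) and Tppp (0.96), and closest to Kcna1 were Gm45441 (0.981), Aldh3a2 (0.955) and Fasn (0.948). For Cntnap1 they were Crhr2 (0.978), Mpp2 (0.976) and Gm11953 (0.961), for Cntnap2 Zfp759 (0.974), Sh3bgr (0.966) and Zfp524 (0.956), and for Cntn2 Emx2 (0.973), Ankrd53 (0.969) and Cog5 (0.961). The lowest r among the first matches was that of Cntn1 with Slc6a8 (0.951), followed by Bmp2k (0.94) and Nek6 (0.921). Sptbn4 was closest to Smim19 (0.959), Akr1b8 (0.936) and Osbpl7 (0.932), and Scn8a to Rpl3-ps2 (0.962), AC241534 (0.955) and Ddx55 (0.938).

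For Kcna2 the closest genes were Neurl1b (0.996), Eif3j2 (0.994) and Cbl (0.994), and a single library makes the likeness. Neurl1b had 1.93 CPM in vehicle M2, against 15.9 to 17.5 CPM in the other 7 libraries. Eif3j2 had 0 counts in vehicle M2, against 10.1 to 12.7 CPM elsewhere, and Cbl had 29.0 CPM, against 86.9 to 97.8 CPM. Such losses in a single library were not limited to vehicle M2. Among 14475 genes with a mean of at least 1 FPKM, 24 were more than 2-fold below the lowest other library there, against 17 to 33 in the PLX3397 libraries and 18 to 26 in the other vehicle libraries.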

How the data were processed

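The deposited table holds whole-number read counts per gene and, in further columns, the authors' FPKM values, per the file headers; a count of 0 is listed at 0.0001 FPKM. Tools in the submitters' processing notes are bcl2fastq 2.0, HISAT2, StringTie, DESeq2 and limma, with mm10 as the build; no role is attached to any of them. The sources used here do not give the program that counted reads, its annotation or its use of strand, so reads of overlapping and antisense genes cannot be told apart.

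From the deposited counts, genes with a mean of at least 0.5 FPKM (16894 of 55401) were tested with edgeR 4.0.16 (R 4.3.3), quasi-likelihood F-test, two-sided, TMM scaling and sex as a covariate. P-values were adjusted by Benjamini-Hochberg over all genes tested, with a threshold of 0.05. A treatment-by-sex term was tested in a model of 4 groups. SE was taken as the size of the log2 fold change over the root of F. DESeq2 1.42.0 was an alternative, beside other scaling, filters, covariates and left-out libraries.

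The 10 genes and all lists were chosen with earlier results of these data known. Named genes are the 10, up to 4 genes with the smallest p in each of the lists of other node, paranode and juxtaparanode genes and paralogues, the 3 genes most like each of the 10, Csf1r and single markers. Nrcam, Epb41l3, Ank2, Pmch, Nefl and the 6 precursor markers were named outside that rule after their values were seen, as were Plekhh3 and Ccr10 for an overlap. A few genes within the rule are not reported here. No pair of libraries within a group agreed within sampling noise. Samples are treated as separate animals, since the design text speaks of 8 hypothalami. Same-numbered libraries correlated at 0.03 to 0.107 after removal of group means and were not treated as pairs.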

Additional observations from a re-analysis of the deposited data

Results flagged for a closer look

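Among 48 groups of 4 libraries, covering the 10 node genes and 14 related genes named by the rule, 1 held a library far from the other 3 by Dixon's test at the 95% level, and chance alone gives such a gap in about 5% of groups. Kcna2 was at 44.9 CPM in vehicle M2, against 211 to 232 CPM in the other vehicle libraries.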

How the results depend on the processing

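Nfasc was lower in 16 of 16 alternative fits at an adjusted p under 0.05, with log2 fold changes from −1.18 to −1.04. Each of the other 9 genes was past the threshold in 0 of 16. The sign of 5 of these turned in at least 1 alternative: Cntn1 ran from −0.08 to 0.06, Cntn2 from −0.07 to 0.07, Sptbn4 from −0.04 to 0.03, Scn8a from −0.25 to 0.02 and Kcna2 from −0.04 (without vehicle M2) to 0.81 (without vehicle M1). Ank3 stayed between −0.26 and −0.16. The count over all genes was 362 in the fit reported. DESeq2 gave 1097, leaving out both vehicle F1 and PLX3397 M2 gave 123, and fits that each left out a library gave 138 (without vehicle M1) to 361. The count of 5 partner genes became 8 with DESeq2 (Ugt8a, Fa2h and Lgi3 added), 3 without an expression filter, 3 with both libraries left out and 2 to 6 with each library left out. For the treatment-by-sex term the count over the 10 genes was 0, and 0 to 1 with each library left out. With the replicate label as a block, a replicate block fit gave 79 genes in all, 1 of the 10 node genes (Nfasc) and 2 partner genes. The labels do not say whether same-numbered libraries share more than sex and number. Their correlations were weak but all positive, at 0.0799 for F1, 0.107 for F2, 0.0897 for M1 and 0.03 for M2. PLX3397 libraries matched their own number best in 4 of 4 cases, and so did the vehicle libraries other than M2. These values cannot decide whether the libraries are paired. The cause of the changes between fits was not tested. With 4 animals a group, small differences such as that of Ank3 are limited by the spread between animals rather than by depth.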
